A study of Medicago truncatula with 160 samples.

Results

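Strains 141 and 182 of Sinorhizobium meliloti (Ensifer meliloti in the labels) stood at one end of the second principal component of plant expression in nodules of Medicago truncatula line DZA. They were set against strains 121, 199, 204 and 206, which like them carry the accessory gene clusters that the study calls C1 and C2. The strains 141 and 182 were represented on DZA by 7 of the 160 libraries of the series, 4 plants of strain 141 and 3 of strain 182, and the comparison strains by 16. The members were thus chosen on plant expression in these DZA libraries, so every DZA difference below, calls past a threshold included, is a description and supports nothing by itself. The same strains on the second host line, A17, gave 8 libraries against 16, which the choice did not use.

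Each library was the nodule RNA of 1 plant that had been inoculated with a single natural strain, with 4 plants for each of 20 strains on each host. All plants were wild-type lines, DZA or A17, grown in the greenhouse in a sterilized mix of sand, calcined clay and field soil. Mature nodules of a plant were pooled, at 6 weeks after planting on DZA. A nodule library therefore mixes infected and uninfected plant cells with bacteria of every developmental zone, and a change in the number of cells of a type cannot be told apart from a change in RNA per cell.

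In a nodule, the plant perceives bacterial signals, lets the bacteria enter through infection threads and houses them inside its cells, where they differentiate and fix nitrogen. Host genes of this program include the transcription factor NIN, the flotillins that act in infection, the nodule-specific cysteine-rich (NCR) peptides that drive bacterial differentiation, and the leghemoglobins that keep free oxygen low. Strains of one bacterial species differ in accessory genes, many of them on the symbiotic megaplasmid pSymA, and in the sequence of shared genes. Hosts differ in how they respond to the same strain.

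The labels were first checked against the bacterial reads. Over 499 rhizobial genes that vary among strains, each of the 23 DZA and 24 A17 libraries used matched its own strain best, with 92.18% or more of calls shared on DZA and 72.75% or more on A17. The genes and the profile of each strain came from medians of the DZA libraries grouped by label, plant 3406 of strain 182 included. A DZA library thus helped to make the profile it was matched to, and only the A17 match is separate from it. Strain 182 could not be told from strain 89 by these genes. The library labelled strain 182 plant 3406 on DZA shared 47.09% of calls with its own strain and 99.80% with strain 176A, and it was left out. The 2 genes of C1 had a median of 41.8 to 140 rhizobial CPM (read counts scaled to a common library size) in the 7 plants of strains 141 and 182 on DZA, and of 14.9 to 135 in the 16 comparison plants. The study places 4 genes in C2, of which 3 were used here. These had a median of 17.2 to 80.9 CPM and of 5.15 to 66.1 CPM in the same groups. Both clusters were at 0 in plant 3406. The strains were not alike in every cluster that the study names. C4 was at 0 in all plants of strain 121 on both hosts. The 17 genes of C5 had a median of 25.7 CPM or more in the 3 plants of strain 182 on DZA. They were at 0 in the 4 plants of strain 141. On A17, strain 121 plant 3373, with the lowest match to its own strain, had a median of 33.6 CPM over the 10 C3 genes. The other plants of strain 121 on A17 had 0 to 1.09 CPM. Plant 3373 was kept in the A17 contrast below. Leaving it out gave 104 genes higher and none lower, against 102 and none with it.

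Plant counts per library ran from 14449810 to 53675182 on DZA (median 33468455) and from 11420491 to 58439685 on A17 (median 30911166). The 10 most abundant plant genes took 25.63% to 74.01% of plant counts on DZA and 24.93% to 80.78% on A17. The rhizobial share of all counts was 3.683% to 35.04% in the plants of strains 141 and 182 on DZA (median 22.17%) and 5.152% to 76.69% in the comparison plants (median 31.505%), so the ranges overlapped. On A17 it was 33.36% ± 15.78 (SD, n = 8) against 28.73% ± 19.93 (SD, n = 16), a difference of 4.64 percentage points that did not pass an exact two-sided permutation test (p = 0.565). That test took the plant as the unit, and with the mean per strain as the unit the exact permutation p was 0.667. The difference was -3.17 points with the 3 largest rhizobial loci left out (exact permutation p = 0.646). It ran from 2.78 to 8.34 points with each plant left out in turn, lowest without 141 plant 3194 and highest without 141 plant 3382.

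The second principal component held 21.3% of the variance among the 20 strain means on DZA, computed on the 5000 most variable plant genes, and the first held 31.1%. Strain 182 scored 69.9 and strain 141 scored 66.7. The next strains in order were 89 with 63.8, then 724B with 24.3 and 748B with 4.28, and the comparison strains lay between -15.1 (strain 206) and -22.2 (strain 199). Strain 89 thus lay just outside the pair that the rule took, and a wide gap separated these 3 strains from 724B.

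The scores of strains 141 and 182 did not rest on a single plant. Projected on the same axis, the plants of strain 141 scored 73.2, 63.9, 55.3 and 74.6, and those of strain 182 scored 68.3, 64.4 and 77.0. The 16 comparison plants scored from -48.4 to 8.1, and plant 3406 scored 3.11, inside their range. The plants of strain 89 scored 67.2, 78.6, 104 and 5.05. With plant 3406 put back, the score of strain 182 was 53.4, below that of strain 141 (66.3) and strain 89 (67).

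**Figure D1:**
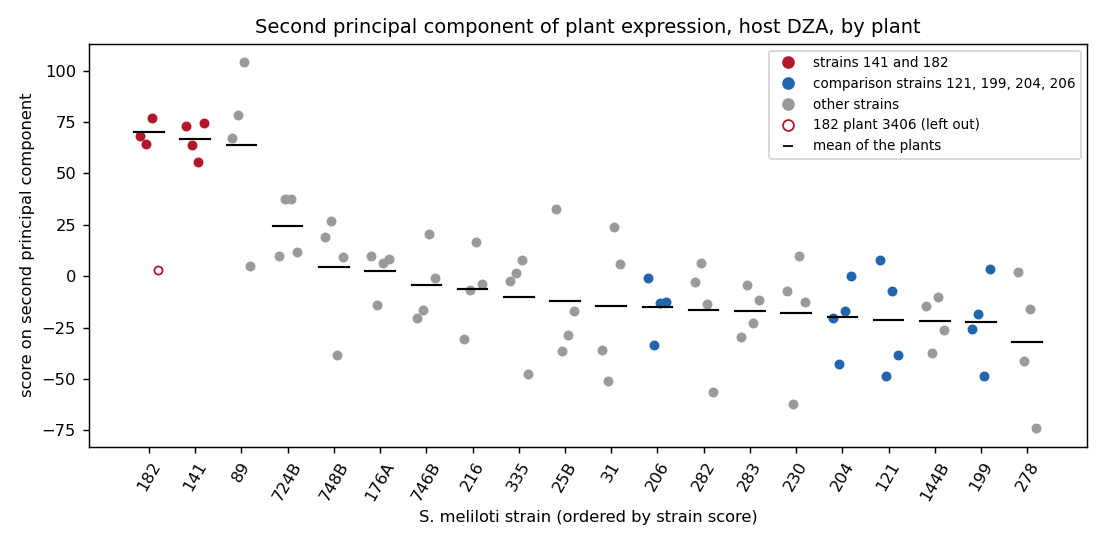
Score on the second principal component of plant expression (unitless) for each DZA plant (points), with strains on the horizontal axis in the order of their strain score. The 7 plants of strains 141 and 182 sit between 55.3 and 77.0, above the 16 comparison plants (-48.4 to 8.1), while plant 3406 sits at 3.11.

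Of 29679 plant genes, 437 were higher (1.47% of all genes tested) and 19 were lower (0.064%) at an adjusted p under 0.05 by edgeR's quasi-likelihood test, 456 in all (1.54%). At an unadjusted p under 0.05, 1599 were higher (5.39%) and 1369 lower (4.61%), and DESeq2 called 561 higher and 189 lower. These counts come from the contrast that chose the strains, and nothing is read from them. The median log2 fold change was 2.74 among the 437 genes, with quartiles of 1.71 and 4.16 and a largest value of 8.85, and it was -0.03 over all genes tested. The differences exceeded 2-fold in 414 genes, 4-fold in 278 and 16-fold in 118.

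Many of these genes were close to silent with the comparison strains. The median mean level of the 437 genes was 9.4 CPM with strains 141 and 182 and 1.29 CPM with the comparison strains, and 201 had a comparison mean under 1 CPM. At the other end, 213 had a mean over 10 CPM with strains 141 and 182, and 26 had a mean over 100 CPM. In 135 of the 437 genes every plant of strains 141 and 182 was above every comparison plant, a pattern that 0.458% of all genes showed. The 19 lower genes had a median level of 0.339 CPM with strains 141 and 182 and 2.16 CPM with the comparison strains. In 5 of them the comparison mean was under 1 CPM, while for Chr3g0116551 it was 33.1 CPM. In 2 of them every plant of strains 141 and 182 was below every comparison plant (0.00674% of all genes).

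The deposited table gives M. truncatula genes by identifier only, and no name or product was at hand for most of the genes that differed. Chr3g0135101 (MtrunA17_Chr3g0135101 in full) had the smallest p among the higher genes. It stood at 387, 250, 222 and 315 CPM in the plants of strain 141 on DZA and at 208, 346 and 462 CPM in those of strain 182. The comparison plants ran from 1.07 to 69.4 CPM with a median of 2.21. All 7 plants lay above all 16, and the comparison plants were themselves split, with 69.4, 34.6, 32.7 and 37.6 CPM for strain 206 and no other plant above 5.48 CPM. The log2 fold change was 6.04 ± 0.30 (SE), and the gene did not pass the threshold on DZA with counts summed per strain (adjusted p = 0.238, edgeR). The library labelled 182 plant 3406 had 1.67 CPM, among the comparison plants.

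On A17, where the strains had not been chosen, the 8 plants of strains 141 and 182 had 17.9 to 64.8 CPM of Chr3g0135101 (46.0 ± 17.3, SD, n = 8) and the 16 comparison plants 0.332 to 3.31 CPM (1.13 ± 0.712, SD, n = 16). The groups did not overlap, and strain 206 was not above the other comparison strains there. The log2 fold change was 5.41 ± 0.34 (SE), with an adjusted p of 4.71e-09 by edgeR's quasi-likelihood test over all plant genes tested.

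Chr8g0374511, the other higher gene named here without an annotation, showed a wider spread among plants. On DZA it had 223, 49.6, 36.3 and 84.0 CPM with strain 141 and 33.2, 123 and 173 CPM with strain 182. The comparison plants had 0 to 2.45 CPM (median 0.502), and plant 3406 had 0.452 CPM. Again every plant of the pair was above every comparison plant, although within strain 141 alone the plants ran from 36.3 to 223 CPM. On A17 the levels were lower, at 20.6, 4.49, 32.9 and 9.76 CPM with strain 141 and 12, 10.4, 6.51 and 17.5 CPM with strain 182, against 0.0785 to 2.01 CPM in the comparison plants. The groups did not overlap on A17 either, with a log2 fold change of 4.25 ± 0.38 (SE) and an adjusted p of 7.49e-07 by edgeR's quasi-likelihood test.

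**Figure D2:**
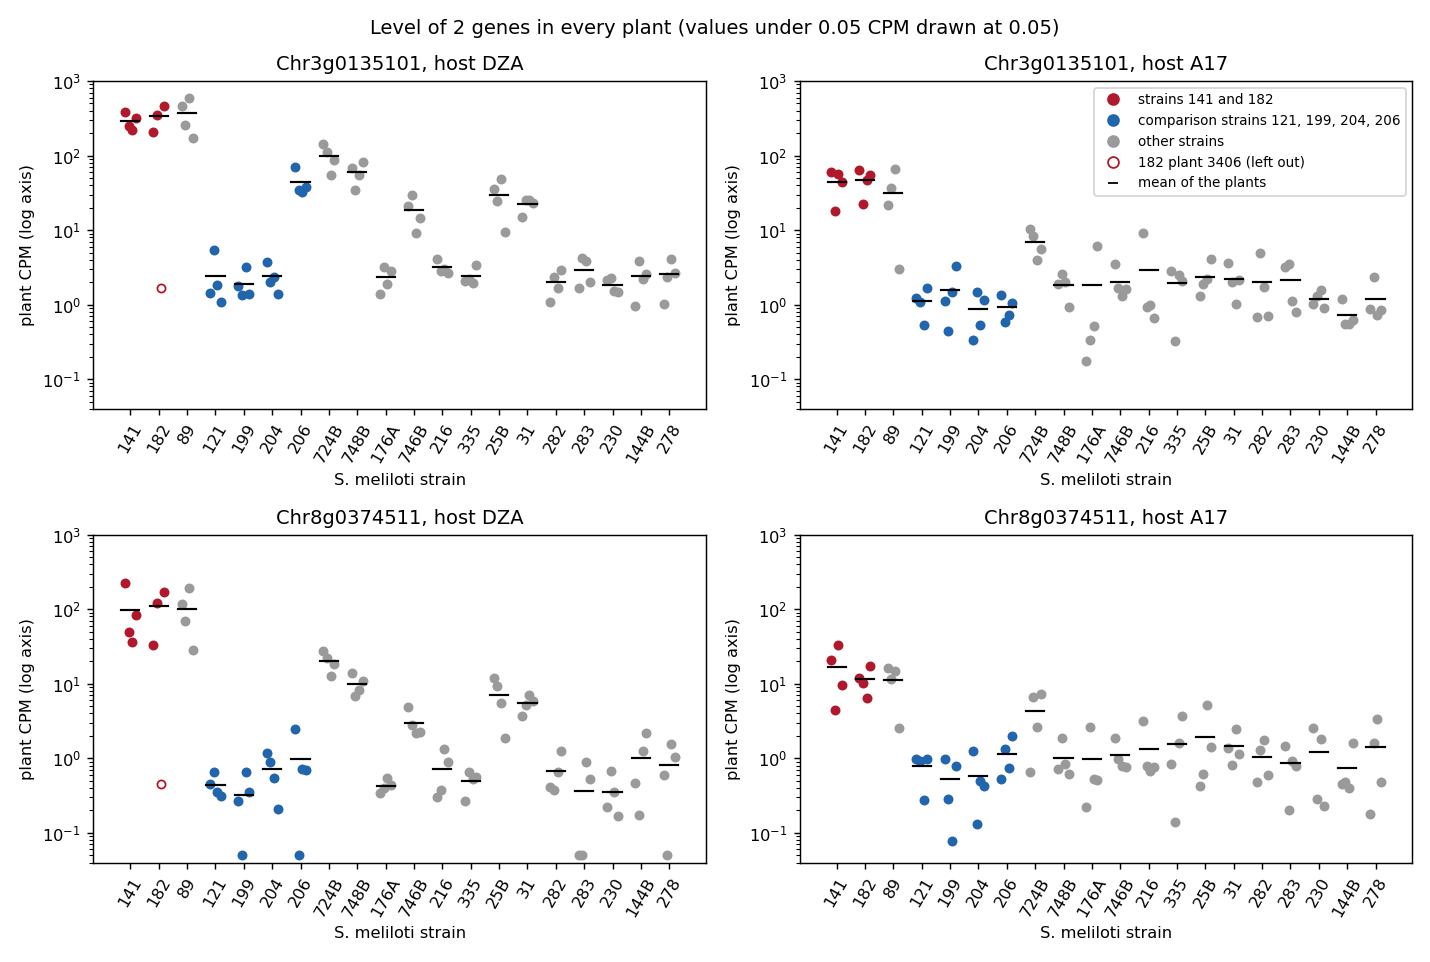
Level of Chr3g0135101 and Chr8g0374511 in every plant (points, plant CPM on a log axis) by S. meliloti strain, for hosts DZA and A17. On DZA the plants of strains 141 and 182 have 208 to 462 CPM of the first gene and 33.2 to 223 CPM of the second, and strain 89 has 174 to 600 CPM of the first.

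Across the whole A17 contrast, 102 of 30688 plant genes rose with strains 141 and 182 (0.332%) and none fell by edgeR's quasi-likelihood test with Benjamini-Hochberg adjustment. At an unadjusted p under 0.05, 613 were higher (2.0%) and 1161 were lower (3.78%) on A17, and DESeq2 called 54 lower and limma 1. The 102 genes had a median log2 fold change of 2.81, with quartiles of 2.0 and 4.06, and 100 of them exceeded 2-fold. Their median level was 4.39 CPM with strains 141 and 182 and 0.549 CPM with the comparison strains. In 23 of them all 8 plants were above all 16 (0.0749% of all genes). These tests take the plant as the unit, while the strains number 2 against 4. With the counts summed per strain, 47 genes rose and none fell on A17.

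The genes that rose on A17 were largely ones already higher on DZA. Both hosts shared 82 genes, which were 80.4% of the A17 list and 18.8% of the DZA list, and the 2 contrasts share no library. Those shares count genes that were tested on 1 host only, since 93 of the 102 were tested on DZA. Of all genes tested, 1.47% were higher on DZA and 0.332% on A17. Of the 23 genes without overlap on A17, 22 were among the 437 on DZA. Of the 437 genes, 393 were tested on A17, where 330 had a log2 fold change above 0 (84.0%, against 44.5% of all genes tested) and 207 were higher at an unadjusted p under 0.05 (52.7%, against 2.0% of all genes). The median log2 fold change of these 393 genes was 2.48 on DZA and 0.69 on A17. In 69 of the 82 shared genes the difference was larger on DZA, with medians of 4.35 and 2.80, although a gene had to pass the threshold on both hosts to be counted and the DZA values had chosen the strains.

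Of the 19 genes lower on DZA, 17 were tested on A17, where 13 had a log2 fold change under 0, 2 were lower at an unadjusted p under 0.05 (against 3.78% of all genes tested) and none passed the threshold. The median log2 fold change of these 17 genes was -2.75 on DZA and -0.315 on A17. Over all genes tested on A17 the median was -0.0374, and 44.5% had a log2 fold change above 0.

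Chr3g0116551 was the clearest of the lower genes on DZA. It had 1.67, 1.23, 1.51 and 1.95 CPM in the plants of strain 141 and 1.95, 2.14 and 1.63 CPM in those of strain 182, against 2.61 to 109 CPM (median 25.3) in the comparison plants. The 7 plants were close to each other and below all 16, which spread widely, and plant 3406 had 92.4 CPM. The log2 fold change was -4.20 ± 0.58 (SE). On A17 the ranges were 3.75 to 9.03 CPM and 5.98 to 27.6 CPM and overlapped, with a log2 fold change of -0.74 ± 0.26 (SE) and an adjusted p of 0.683 by edgeR's quasi-likelihood test.

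Chr4g0050051 had 0.289, 0.245, 0.165 and 0.262 CPM with strain 141 and 0.233, 0.0375 and 0.212 CPM with strain 182 on DZA. The comparison plants had 0.206 to 19.0 CPM (median 3.63), which overlapped that range at its lower end, and plant 3406 had 14.7 CPM. The log2 fold change was -4.28 ± 0.70 (SE) on DZA and 0.27 ± 0.54 (SE) on A17. With plant 3406 put back, neither Chr3g0116551 nor Chr4g0050051 passed the threshold on DZA, and Chr4g0050051 did not pass it by limma or with strain 182 alone either.

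**Figure D3:**
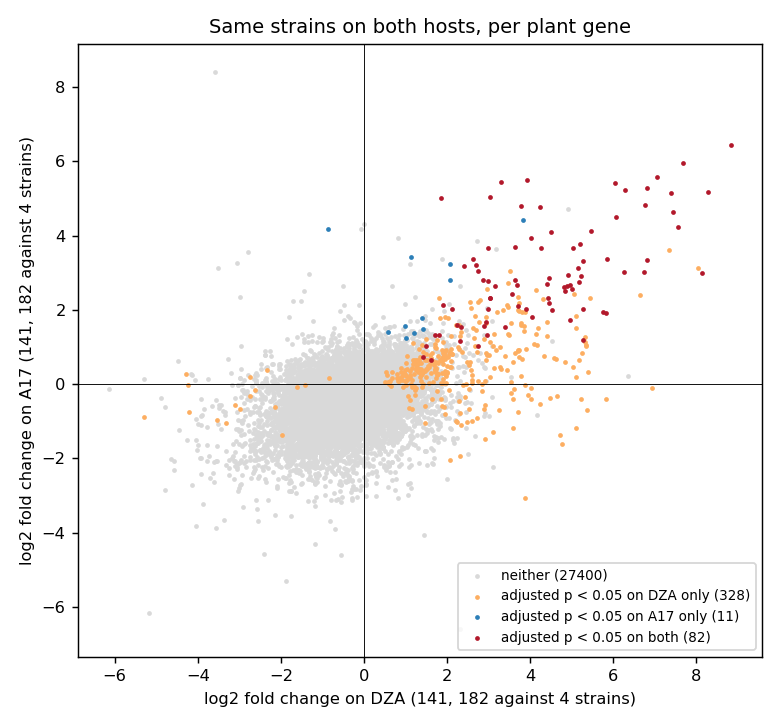
Log2 fold change between strains 141 and 182 and the 4 comparison strains for each of the 27821 plant genes tested on both hosts (points), with DZA on the horizontal and A17 on the vertical axis. Coloured points mark the 82 genes past the threshold as higher on both hosts, 328 past it on DZA only and 11 on A17 only.

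Strains 141 and 182 were then compared with each other. No gene passed the threshold between them on DZA (smallest adjusted p 0.321, edgeR's quasi-likelihood test), where 323 genes (1.09%) had an unadjusted p under 0.05. On A17 none passed either, with 269 genes (0.877%) at an unadjusted p under 0.05. For Chr3g0135101 strain 141 differed from strain 182 by a log2 value of -0.26 ± 0.49 (SE) on DZA and -0.12 ± 0.53 on A17, and for Chr8g0374511 by -0.22 ± 0.82 and 0.51 ± 0.60. Contrasted one at a time with the 4 comparison strains in a joint fit, strain 141 had 397 genes higher and 7 lower on DZA, and strain 182 had 297 higher and 4 lower. On A17 the counts were 67 and 72 genes higher, and none lower for either. In fits without the other strain of the pair, 345 were higher and 6 lower for strain 141 and 210 higher and 2 lower for strain 182 on DZA, and 50 and 59 were higher on A17. With 3 or 4 plants a strain, a missed threshold does not show that the plants responded to the strains alike.

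Levels of the shared genes varied among the plants of the pair. The 82 genes were picked as higher in these same plants, so that the groups stood apart in their mean level on both hosts follows from the choice, and only the spread among plants is described. Over these 82 genes, the mean log2(CPM + 0.5) was 4.87, 3.62, 3.12 and 4.2 in the plants of strain 141 on DZA and 3.37, 4.16 and 4.69 in those of strain 182. In the comparison plants it was 0.31 to 1.80, and in plant 3406 it was 0.486. The lowest plant of the pair was 141 plant 3387, with 13.43% rhizobial counts, and the highest comparison plant was of strain 206. Plant 182 3305, with the fewest rhizobial counts of the pair (3.683%), was the next lowest. With the rhizobial share as a covariate, 475 genes were higher and 18 lower on DZA, and 105 were higher and 3 lower on A17. On A17 the level was 1.72 to 3.18 with strains 141 and 182 (2.63 ± 0.503, SD, n = 8) and 0.372 to 1.1 with the comparison strains (0.684 ± 0.2, SD, n = 16).

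Strain 206 stood apart from the other comparison strains in part of the set. Of the 437 genes, 39 had a mean with strain 206 more than 2-fold above that of the other 3 comparison strains on DZA, and 5 more than 8-fold, against 2 or 3 genes over 2-fold for each of 121, 199 and 204. In 12 of the 437 all 4 plants of strain 206 were above the other 12 comparison plants. The matching count was 1 for strain 121 and 0 for strains 199 and 204. These counts were not made over all genes tested, so whether strain 206 stood apart more in this set than elsewhere was not tested. On A17 no gene of the 102 had a level with strain 206 over 2-fold above the others. Leaving strain 206 out gave 402 genes higher and 18 lower on DZA, and 68 higher and none lower on A17.

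The other 14 strains showed where the pattern ended. Of the 135 genes in which strains 141 and 182 were above every comparison plant on DZA, the plants of strain 89 exceeded every comparison plant in 134, 134, 133 and 114. Plants of strain 724B did so in 75 to 101 genes, those of 748B in 52 to 67, those of 31 in 22 to 51, those of 746B in 24 to 43, and those of 25B in 9 to 64. No plant of another strain did so in more than 26, and plant 3406 did so in 1. Since the 135 genes were picked for standing above the comparison plants, these counts describe the order of the strains only.

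The order was followed by the mean level of the 82 genes. On DZA strain 89 averaged 4.08 (2.93 to 5.01), 724B 2.54 (2.22 to 2.84) and 748B 1.93 (1.7 to 2.2). The plants of strain 89 overlapped those of strains 141 and 182, while those of 724B lay below all of them and above all comparison plants. On A17 strain 89 averaged 2.02 (1.17 to 2.57), or 2.31 (2.14 to 2.57) without plant 3514, whose bacterial reads matched strain 724B. Strain 724B averaged 1.4 (1.1 to 1.84). The next strain, 25B, at 0.869, lay within the range of the comparison plants. These 2 means include 724B plant 3246 (1.11) and 25B plant 3300 (0.845), whose bacterial reads matched another strain better than their own.

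For Chr3g0135101, which belongs to both sets, the same steps were seen in single plants. Strain 89 had 457, 258, 600 and 174 CPM on DZA, strain 724B had 141, 110, 54.3 and 88.1 CPM, and strain 748B had 68.6, 34.2, 55.0 and 81.4 CPM. Strain 89 overlapped strains 141 and 182, strain 724B lay below all their plants, and strains 748B and 206 overlapped. On A17 strain 89 had 22, 36.9, 65.7 and 3.01 CPM, the last in plant 3514 (99.80% of calls matched strain 724B, against 40.48% for strain 89). Strain 724B had 10.2, 8.23, 4.03 and 5.64 CPM there. The first value was of plant 3246, which matched strain 278 in 80.16% of calls and its own strain in 74.35%.

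**Figure D4:**
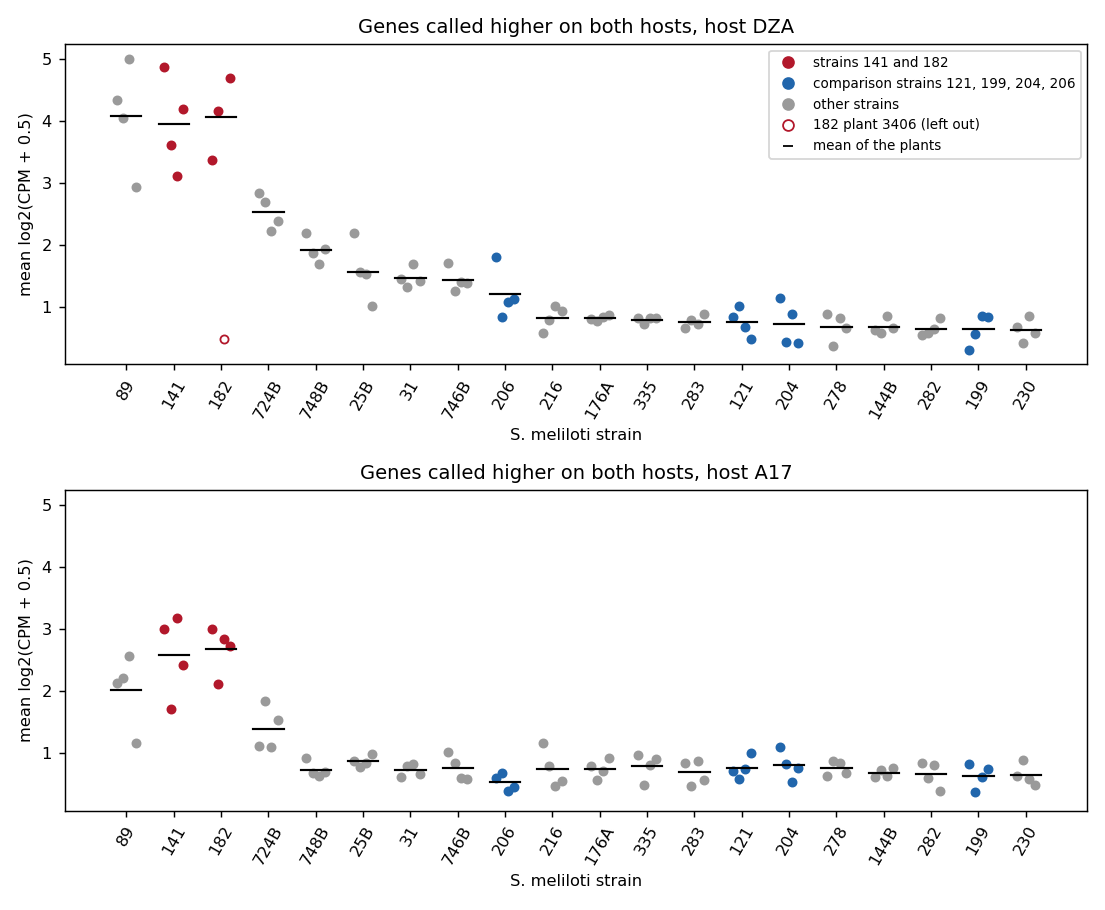
Mean log2(CPM + 0.5) of the 82 genes higher on both hosts, for each plant (points) by S. meliloti strain, on DZA and A17. Plants of strains 141 and 182 lie at 3.12 to 4.87 on DZA and 1.72 to 3.18 on A17, apart from plant 3406 at 0.486, and strain 89 averages 4.08 and 2.02 (2.31 without plant 3514).

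Among 84 symbiosis genes that the study lists, the difference was small. Of 83 tested on DZA, 2 were higher (MtFLOT2 and Chr3g0133391; 1.47% of all genes were) and none lower, with a median log2 fold change of 0.10, and of 82 tested on A17 none passed the threshold, with a median of 0.03. At an unadjusted p under 0.05, 7 were higher and 1 lower on DZA (5.39% and 4.61% of all genes), and 2 were higher and 2 lower on A17 (2.0% and 3.78% of all genes).

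MtFLOT2 encodes flotillin 2, a membrane protein required for infection. It had 37.2, 28.6, 30.5 and 24.9 CPM in the plants of strain 141 on DZA, 16.9, 37.2 and 49.6 CPM in those of strain 182, and 8.62 to 26.6 CPM (median 14.1) in the comparison plants. The ranges overlapped, through 182 plant 3305 and 141 plant 3459. The log2 fold change was 1.11 ± 0.19 (SE) on DZA and 0.36 ± 0.18 (SE) on A17, where the adjusted p was 0.875 by edgeR's quasi-likelihood test. Its paralog MtFLOT4, which acts in infection thread growth, had 59.9 ± 16.9 CPM (SD, n = 7) against 34.6 ± 13.2 CPM (SD, n = 16) on DZA. It did not pass the threshold (adjusted p = 0.119, edgeR), but passed it with counts summed per strain (0.0109), with the rhizobial share as a covariate (0.03), without strain 199 (0.0482) and without 182 plant 3305 (0.0408).

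Chr3g0133391, on the symbiosis list without a name, had 34.4, 18.6, 23.0 and 21.1 CPM with strain 141 and 9.97, 37.2 and 50.3 CPM with strain 182 on DZA, against 6.0 to 14.2 CPM in the comparison plants. Only 182 plant 3305 lay inside the comparison range. The gene had a log2 fold change of 1.34 ± 0.23 (SE) on DZA and 0.40 ± 0.15 (SE) on A17, with an adjusted p of 0.764 on A17 by edgeR's quasi-likelihood test.

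The regulators and effectors of nodule development differed by less than their spread. MtNIN, the transcription factor that starts infection and nodule formation, had 206 ± 32.1 CPM (SD, n = 7) with strains 141 and 182 and 173 ± 51.2 CPM (SD, n = 16) with the comparison strains on DZA. MtNCR169, an NCR peptide required for bacteroid development, had log2 fold changes of 0.74 ± 0.45 (SE) on DZA and 0.10 ± 0.39 on A17. MtDNF1, a signal peptidase subunit that processes NCR peptides, had 0.04 ± 0.17 on DZA and 0.04 ± 0.15 on A17. None of these passed the threshold on either host.

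Genes that restrain defence in the nodule did not pass the threshold on either host. MtNAD1 had a log2 fold change of 0.14 ± 0.42 (SE) on DZA and -0.16 ± 0.26 on A17, and MtSymCRK, a receptor-like kinase, had 0.53 ± 0.29 and 0.13 ± 0.24. MtSYMREM1, a remorin of the infection membrane, had 0.48 ± 0.18 on DZA and -0.07 ± 0.21 on A17. MtSUCS1, a sucrose synthase that feeds nodule metabolism and the most abundant gene named here, had 3130 ± 497 CPM (SD, n = 7) against 2180 ± 524 CPM (SD, n = 16) on DZA, a log2 fold change of 0.52 ± 0.19 (SE) that did not pass the threshold. MtZPT2-1, a zinc finger transcription factor of bacteroid development, had 0.73 ± 0.24 on DZA and 0.39 ± 0.23 on A17. It passed the threshold on DZA with counts summed per strain, with the rhizobial share as a covariate and with all 20 strains fitted together. MtCAS31, a dehydrin, had -2.54 ± 1.41 on DZA, where the comparison plants ran from 0 to 198 CPM.

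Leghemoglobin genes did not pass the threshold on either host. On DZA their summed level was 6240 to 15700 CPM with strains 141 and 182 and 2730 to 13800 CPM with the comparison strains. On A17 it was 6290 to 12300 CPM against 2390 to 14500 CPM, so the ranges overlapped on both hosts. Of the 9 genes, 7 were higher at an unadjusted p under 0.05 on DZA (5.39% of all genes were) and the median log2 fold change was 0.78, against -0.03 over all genes, in the contrast that chose the strains. On A17 none had an unadjusted p under 0.05 and the median was 0.04. The study drew this list, and those of the other processes below, from modules of these same libraries.

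The remaining lists gave no call on either host. On DZA the 4 auxin biosynthesis genes had a median log2 fold change of -0.72, with 3 lower at an unadjusted p under 0.05 (4.61% of all genes were), and the 4 circadian rhythm genes had a median of -0.89. On A17 those medians were 0.15 and 0.02. The genes for peroxidases, acid phosphatases, iron binding, nitrate and sugar transport, phosphate and nitrogen starvation, systemic acquired resistance, cytokinin signalling and translation had medians between -0.34 and 0.52 on DZA and between -0.27 and 0.07 on A17. Genes of the mitochondrial genome had a median of -0.39 on DZA, with 35 of 186 lower at an unadjusted p under 0.05 (4.61% of all genes), and of -0.22 on A17, with 28 of 184 (3.78% of all genes). Genes of the plastid genome had medians of -0.23 and -0.33, with 8 and 27 of 108 lower, beside the same shares of all genes. Leaving the organelle genes out of the library sizes gave 438 genes higher and 19 lower on DZA and 102 higher on A17.

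**Figure D5:**
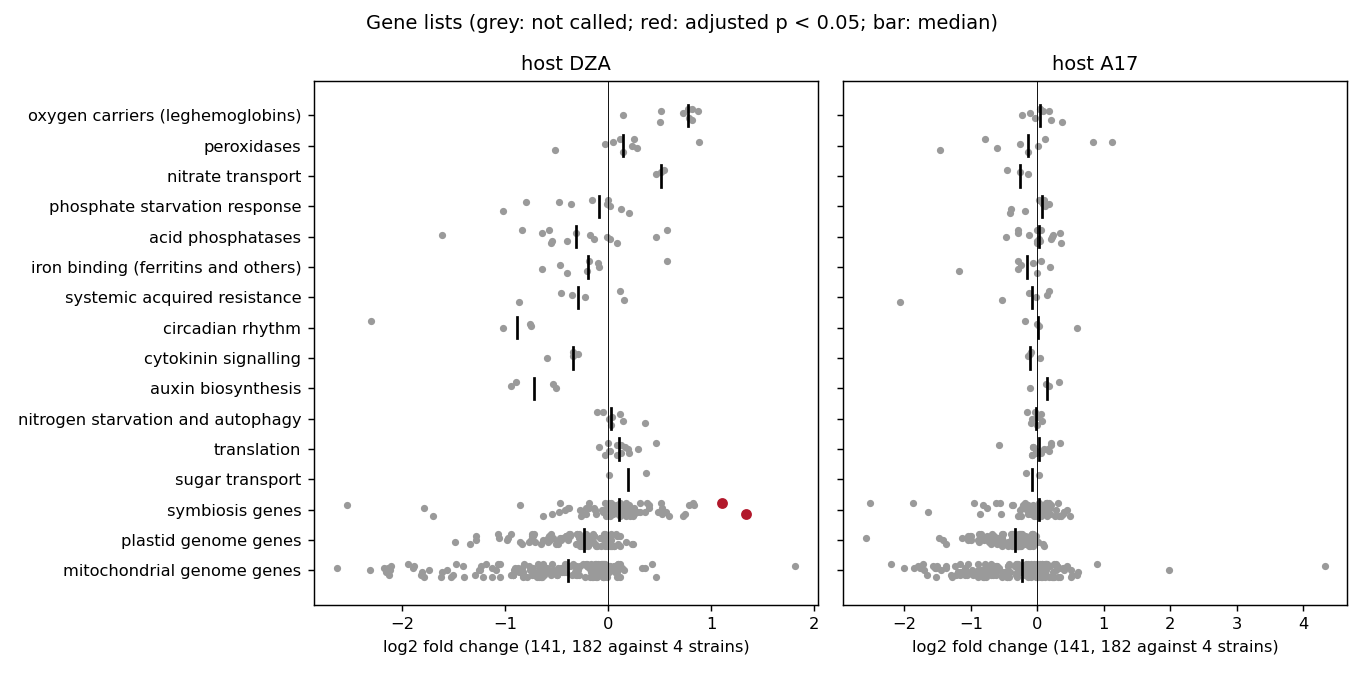
Log2 fold change between strains 141 and 182 and the 4 comparison strains for the members of each gene list (points) with the list's median (bar), on DZA and A17. Red points passed the threshold (2 symbiosis genes on DZA), and the medians run from -0.89 to 0.78 on DZA and from -0.33 to 0.15 on A17.

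One further annotated gene, Chr6g0450641, which a table of the study describes as a carbonic anhydrase, was higher on DZA and varied widely among plants. It had 1.98, 14.5, 0.827 and 3.91 CPM with strain 141 and 10.3, 1.05 and 4.02 CPM with strain 182, against 0 to 2.42 CPM in the comparison plants, and the ranges overlapped. On the log2 scale the difference was 2.90 ± 0.54 (SE) on DZA and 0.09 ± 0.74 on A17, where it ran up to 20.2 CPM in the comparison plants. On DZA it did not pass the threshold with counts summed per strain (adjusted p = 0.257, edgeR) or without strain 121 (0.0719). It was also low with strain 89 on DZA (0 to 1.96 CPM), unlike Chr3g0135101 and Chr8g0374511.

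The 437 genes lay on all 8 chromosomes, making up 1.3% to 2.43% of the genes tested on each, with the highest share on chromosome 6. Some were neighbours in the order of the identifiers. Among the genes tested, each of the 437 had a place on either side of it in that order, 874 places in all. Of these places, 104 held another of the 437 (11.9%, against 1.47% of all genes), and a gene could be counted more than once. The neighbours formed 41 runs that held 93 genes and were up to 5 genes long. On A17 24 of 204 such places held a gene that rose (11.8%, against 0.332%), in 10 runs of up to 3 genes. Whether neighbouring members are near-identical copies, among which estimated counts can be split, was not tested.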

How the data were processed

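The deposited values are expected counts (Salmon estimates, not scaled to library size), which the authors hold in 1 table for plant and bacterium together. Salmon 1.4.0 was run on the joined transcripts of M. truncatula line A17 (r5.0) and the S. meliloti reference strain, and tximport then gave counts corrected for bias with no offset, multi-mapped reads included. DZA reads were thus matched to A17 transcripts, which can affect levels set across hosts but is shared by the groups compared within a host. Libraries were stranded and sequenced on a NovaSeq.

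Counts were rounded, and only M. truncatula genes entered library sizes and tests. For each host the libraries of the 6 strains were fitted with edgeR 4.0.16 (TMM, quasi-likelihood test, R 4.3.3), after a filter that required 10 counts in 4 or more of the fitted libraries, and p-values were adjusted by Benjamini-Hochberg over all plant genes tested, at a threshold of 0.05. Groups came from the host and strain in the labels. Strains 141 and 182 were set against strains 121, 199, 204 and 206. Principal components used log2 CPM with a prior count of 2. Printed CPM values share 1 TMM scale over all 160 libraries. On DZA, strain 182 plant 3406 was left out. The rhizobial share was tested on A17 by an exact permutation test. Alternatives covered the normalization, filter, tool (DESeq2 1.42.0, limma 3.58.1), unit, covariate, strains and plants left out. P-values measure the spread among plants of these strains. In data simulated from the DZA libraries (29679 genes), 43 of 50 genes changed 4-fold and 15 of 50 changed 2-fold were recovered, and 8.24% of calls were false. For A17 (30688 genes) these were 45 and 31 of 50, and 5.38%. The changed genes were drawn from those with more than 50 expected counts, and strains within a group did not differ in the simulated data. These rates therefore do not cover weaker genes or differences among strains.

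The strains, gene lists and tests were chosen with earlier results of these data known. Genes to name were those with the smallest p, the highest level or the largest change without overlap in each direction, the most abundant members of each list, and the symbiosis genes past the threshold. The deposited files do not pair identifiers with names, and the study's module table, which gives descriptions, was read here only in part. Of the genes without a description in the parts read, 2 higher and 2 lower ones are named. Gene lists came from the study's tables. Lists defined by words in a gene's description (defence, NCR peptides and others) were not analysed here for lack of an annotation, and no sequence is shown for the same reason.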

Additional observations from a re-analysis of the deposited data

Results flagged for a closer look

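Of 32 groups tested for an outlying plant, 3 held one, where chance gives about 1 in 20 groups. All 3 were in the rhizobial share of counts, in strains of the comparison. On A17, strain 182 plant 3378 had 9.422% against 40.78% to 44.49% in the other plants of the strain. Strain 121 plant 3373 had 39.82% against 7.984% to 11.8%, and strain 204 plant 3168 had 59.89% against 11.77% to 19.47%. Outside the strains compared, strain 216 plant 3110 on A17 had 96.29% against 22.85% to 26.12%, and was not among those flagged.

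Strains outside the comparison also had high levels of the 82 genes that were higher on both hosts, measured as mean log2(CPM + 0.5). On DZA strain 89 averaged 4.08 and strain 724B averaged 2.54, with every plant of both above the 16 comparison plants (0.31 to 1.80). On A17 strain 89 averaged 2.02, with its 4 plants at 1.17 to 2.57 against 0.372 to 1.1 in the comparison plants. Its plant 3514 carried bacterial reads that matched strain 724B, and without it the mean was 2.31. These differences were not tested.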

How the results depend on the processing

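The number of genes past the threshold on DZA (456) was within 1.5 times under the other settings but moved to 750 with DESeq2 (561 higher, 189 lower, or 74.8% higher against 95.8%) and 212 with strain 182 alone. With each plant left out in turn it ran from 339 to 519. On A17 the count (102) moved to 204 with DESeq2 (150 higher, 54 lower, or 73.5% higher against 100%), 157 with limma, 47 with counts summed per strain, 50 with strain 141 alone and 59 with strain 182 alone, and ran from 80 to 118 with each plant left out. The last 3 settings rest on fewer samples, and for the tools the cause was not tested. The difference in rhizobial share on A17 (4.64 points) became -3.17 with the 3 largest rhizobial loci left out, and ran from 2.78 to 8.34 with each plant left out. The cause was not tested.

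No named gene past the threshold lost it when a plant was left out or changed sign under any setting run. Of those not past it, 2 of 10 on DZA and 7 of 15 on A17 changed sign under a setting. No paired analysis was possible because the plant numbers are unique to each plant. With 50 genes simulated for each fold, 15 of the 2-fold changes were recovered on DZA, so differences of that size can be missed at this depth and number of plants.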

Other observations

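In other libraries too the reads did not match the label best. Calls count a gene as present from a low level, and whether these libraries held mixed strains was not tested. The library labelled strain 176A plant 3292 on DZA matched the profile shared by strains 182 and 89 in 81.56% of calls. It matched its own strain in 54.51%, and its mean log2(CPM + 0.5) of the 82 genes was 0.807. Its C3 genes had a median of 99.7 CPM (0.202 or less in the plants of strain 182 used on DZA). Its C5 genes had 0.407 CPM (25.7 or more in those plants). C1 and C2, at 0 in the other plants of strain 176A on DZA, had medians of 13.3 and 3.14 CPM. On A17 the library labelled strain 25B plant 3300 matched the profile of strains 182 and 89 in 85.97% of calls and its own strain in 73.55%, with a mean of 0.845. The library labelled strain 724B plant 3246 matched strain 278 in 80.16% and its own strain in 74.35%, with a mean of 1.11. All of these means were below those of every plant of strains 141 and 182 used on the same host.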
